A study of Mus musculus with 12 samples.

Results

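Exon-class ac4C peaks of protein-coding genes are regions of RNA enriched by an antibody to ac4C. The authors' peak table placed them in an exon without naming it coding sequence or an untranslated region. The members were all rows with the class exon whose gene had the biotype protein_coding, and they came to 2099 peaks in 1231 genes, of 19049 peaks in 8797 genes in all. Another 1263 exon-class peaks lay in genes of other biotypes and were left out. The remaining peaks of protein-coding genes comprised 9603 in coding sequence (CDS), 5603 in a 3' UTR and 431 in a 5' UTR.

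The study used ID8, a mouse cell line derived from ovarian surface epithelium, either as untreated control or after cisplatin, a platinum drug that crosslinks DNA. Its stated question was how ac4C placed by NAT10 regulates mRNA under cisplatin. RNA depleted of ribosomal RNA was sheared chemically, and part of it was precipitated with an antibody to ac4C (IP) while the rest was kept as input. The 12 libraries formed 4 groups of 3: control input, control IP, cisplatin input and cisplatin IP. The labels give neither the dose nor the duration of cisplatin, name no genetic change, and do not say whether replicates were separate cultures. All material is 1 cell line. The p-values computed here, for input RNA, measure only the spread between these samples, which may be technical. The authors' peak values come without a value per library, so what spread their adjusted p measures cannot be told.

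N4-acetylcytidine (ac4C) is a cytidine carrying an acetyl group on the amino nitrogen of its base. NAT10 is the acetyltransferase that writes it in ribosomal RNA and, with the adapter THUMPD1, in some transfer RNAs, and it has been linked to acetylation of mRNA, where the mark is associated with RNA stability and translation. In ribosomal RNA the acetylated base lies in the motif CCG, and repeats of C followed by any pair of bases (CNN) have been described in acetylated mRNA. In an acRIP-seq experiment a peak is a stretch of RNA that is more abundant in the precipitate than in the input, and its width is that of the RNA fragments and not of a single base.

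The class name was compared with where the peaks lie, since no source used here gives the transcript models behind it. The middle of the outer span fell outside the blocks in 42 of the 825 member peaks with over 1 block. Every one of the 1676 member peaks whose gene had a RefSeq strand lay on that strand (100%). All 7559 such CDS peaks did so too, so the strand does not set the class apart. Of the members, 1274 (60.7%) were 1 continuous block, 523 had 2 blocks and 302 had 3 or more. The share with 1 block was 29.2% among CDS peaks and 93.2% among 3' UTR peaks. The gaps between blocks in the 825 member peaks with over 1 block were not compared with annotated introns or junction reads. Whether these peaks come from spliced RNA was therefore not tested. The median width within exons was 181 bases, with quartiles of 151 and 241.

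The sequences at hand were start windows and miRNAs from RefSeq on GRCm38.p6, the assembly behind mm10. A start window runs from 250 bases before to 50 bases after an annotated transcript start. Member peaks touched such a window, of any gene, in 58 cases (2.76%), against 1.29% of CDS peaks, 0.196% of 3' UTR peaks and 31.3% of 5' UTR peaks. The whole stretch from base 21 to base 50 after the start lay inside 29 member peaks, giving 30 stretches of 30 bases because the Spp1 peak held 2 starts. Of these 29 peaks, 12 had an adjusted p of the cisplatin difference under 0.05 in the authors' deposited table, 10 of them positive and 2 negative. Over all peaks 46.2% passed that threshold, 36.5% positive and 9.62% negative, so the share is near that of the whole table. The stretches of those 12 peaks are shown first to last by that adjusted p, followed by Tmem60 and Cox20, which missed the threshold but hold the CNN repeat. Each runs 5' to 3', and capitals mark the C positions of the motif CNNCNNCNNCNN.
Psmb3, chr11:97703454-97703483, plus strand: gctgtggggatcgggCttCcaCtcCagCgc
Ppia, chr11:6415887-6415916, plus strand: cgcttttcgccgcttgctgcagccatggtc
Etfb, chr7:43444092-43444121, plus strand: tgtgtgactatctggattaggagcaacctg
Polr2e, chr10:80039610-80039639, minus strand: atggacgacgaggaggagacctaccggctg
Crip1, chr12:113152032-113152061, plus strand: gaccaggcgggcgccacccagtccagagcc
Pcolce, chr5:137611355-137611384, minus strand: gCtgCtgCtgCtgCtgCtgaactcagctgc
Rpl14, chr9:120571537-120571566, plus strand: acatggtgagtgtgtgtgccgagagctccg
Spryd3, chr15:102136166-102136195, minus strand: gccgaagagctacaacgcggagctgagagg
Osgin1, chr8:119437167-119437196, plus strand: ggctaatgggcatcctgttcttgcagcagg
Glmp, chr3:88325043-88325072, plus strand: tctgaggctcttccgctgagtttaactagc
Spp1, chr5:104436212-104436241, plus strand: ggtggagaggtagaaaaggcacacaaatat
Spp1, chr5:104435131-104435160, plus strand: gaagaagcatccttgcttgggtttgcagtc
Uqcc3, chr19:8880884-8880913, minus strand: agcccgcatagggagcggtgagatgtcatg
Tmem60, chr5:20882473-20882502, plus strand: ttgaggtgcggagggCctCagCtgCggCtg
Cox20, chr1:178319173-178319202, plus strand: gCggCcgCccCggagccccacgagacggag

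The repeat CNNCNNCNNCNN was found in 4 of the 30 stretches (13.3%), those of Psmb3, Pcolce, Tmem60 and Cox20, against 12.0% of the same 30 bases in 32851 RefSeq start windows. On the other strand the shares were 16.7% and 17.6%. The motif CCG, which can overlap the repeat, was in 36.7% of the stretches and 31.0% of all windows on the strand of the gene, and in 50.0% and 35.1% on the other strand. The median C content was 23.3% in the stretches and 26.7% in all windows. The repeat was thus found about as often inside these peaks as in start windows at large, and a match is a description of letters and not a site.

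Among the peaks shown, Crip1, a small LIM-domain protein, had the largest log2 difference (7.57, log10 adjusted p of -7.4) with a fold enrichment of 12.9. Psmb3, a subunit of the proteasome core, had the lowest log10 adjusted p (-44.1) at a log2 difference of 3.77. Rpl14, a protein of the large ribosomal subunit, had 5.04. Ppia, the prolyl isomerase cyclophilin A, was negative at -1.10 with a log10 adjusted p of -30.0, and Spp1, the secreted phosphoprotein osteopontin, was negative at -0.33. Both signs occurred among these peaks.

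Small RNA genes inside the members were looked up in the same RefSeq tables. Introns of ribosomal protein and ribosome assembly genes often carry small nucleolar RNAs (snoRNAs), which guide modification of ribosomal RNA. Of the member peaks, 17 (0.810%) shared bases with a snoRNA gene, against 7 CDS peaks (0.0729%) and 0 of the 5603 peaks in 3' UTRs. The 17 peaks lay in 12 host genes, 7 of them ribosomal protein genes, and 9 of the 17 snoRNA genes were covered whole. The strand of the snoRNA genes is not in the table. Of these 17 peaks 13 passed the authors' threshold, 10 positive and 3 negative, where 46.2% of all peaks passed, 36.5% positive and 9.62% negative. Among members in the highest of 4 equal groups by input level of the gene, 70.1% passed. Hosts such as Hspa8, Rpl3, Rps12 and Rack1 lie in that group, and the part of gene level was not tested. RNA of a host exon that reaches into the snoRNA and the snoRNA itself were not told apart.

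The Rps12 peak that holds all 105 bases of Snora33 had an enrichment of 139-fold, with a log2 difference of 1.52 and a log10 adjusted p of -89.5. A further Rps12 peak covered Snord100 at 3.51-fold enrichment and a log2 difference of 2.18. The 3 negative peaks covered Snord14c in Hspa8 (-0.28), Snord15b in Rps3 (-0.34) and Snord57 in Nop56 (-0.45). The median enrichment of the 17 peaks was 3.86-fold and their median log2 difference 0.66, against 7.05 and 1.58 over the members.

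MicroRNA genes on the same strand shared bases with 6 member peaks, and 2 of them, Mir3102 in Arhgef17 and Mir6922 in Srebf1, were covered whole. The mature forms that lie whole inside a block of a member peak are shown, with the seed (bases 2 to 8) in capitals, since they name the small RNAs whose sequence these peaks contain. No seed is shared among them.
mmu-miR-1982-5p (Oaz1), chr10:80828808-80828827, plus strand: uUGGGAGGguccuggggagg
mmu-miR-3102-3p (Arhgef17), chr7:100882307-100882329, minus strand: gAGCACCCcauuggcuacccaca
mmu-miR-3102-3p.2-3p (Arhgef17), chr7:100882330-100882350, minus strand: cUCUACUCccugccccagcca
mmu-miR-3102-5p.2-5p (Arhgef17), chr7:100882367-100882387, minus strand: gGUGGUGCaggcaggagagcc
mmu-miR-3102-5p (Arhgef17), chr7:100882388-100882409, minus strand: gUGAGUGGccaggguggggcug
mmu-miR-6922-3p (Srebf1), chr11:60202262-60202284, minus strand: uGUUCUGCucacccuucucacag
mmu-miR-6922-5p (Srebf1), chr11:60202300-60202322, minus strand: uGUGGGAGgggacuguagagagg
mmu-miR-707 (Akt1s1), chr7:44849705-44849725, plus strand: cAGUCAUGccgcuugccuacg

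Of these 6 peaks, 3 passed the authors' threshold and all 3 were positive, where 46.2% of all peaks passed and 79.2% of those that passed were positive. The Arhgef17 peak had a log2 difference of 3.58 (log10 adjusted p of -4.43). The peak in Oaz1, the antizyme that inhibits ornithine decarboxylase, had 1.23 (-10.0) and took in 48 of the 74 bases of the Mir1982 hairpin, the mature 5p form whole and none of the 3p form. The peak in Pdia4, a disulfide isomerase of the endoplasmic reticulum, had 5.06 (-62.9) and took in 14 of the 77 bases of Mir704, outside the mature form. Srebf1, a regulator of lipid synthesis, had 1.42 with a log10 adjusted p of -0.624, Plod3 1.03 (-0.606) and Akt1s1 1.22 (-0.218), none of which passed.

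Along the RefSeq gene span, introns included, the middle of the 2068 member peaks that could be placed (98.5%) had a median of 70.8% of the way from the 5' end. The last 10% of the gene span held 25.6% of them and the first 10% held 7.11%. CDS peaks had a median of 69.1% with 16.8% in the last 10% of the span, and 3' UTR peaks had 95.8% with 76.0% there. Exon-class peaks were therefore spread through the gene much as CDS peaks were, with larger shares at each end. No test was made of these differences between classes, because peaks of a gene are not replicates.

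**Figure D1:**
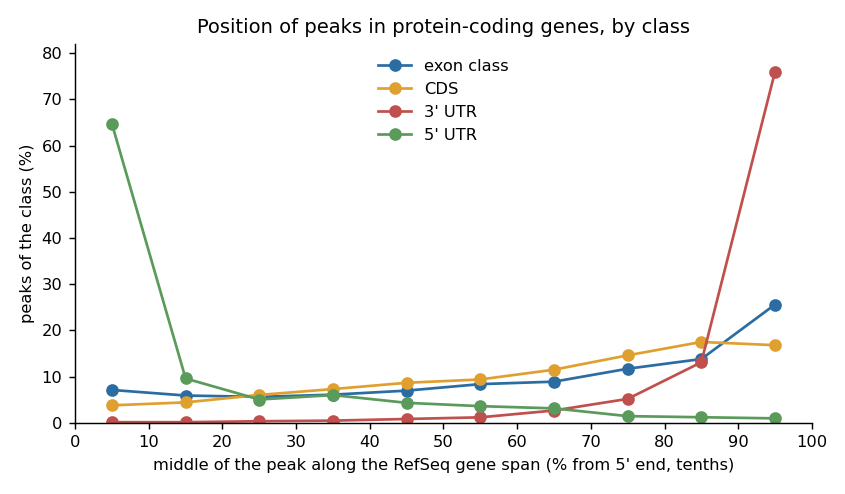
Percentage of peaks (vertical axis) in 10 equal parts of the RefSeq gene span from the 5' end (horizontal axis) for the 4 classes of protein-coding genes. The exon-class line lies above the CDS line in the first part (7.11% against 3.78%) and in the last, where it reaches 25.6% against 16.8% for CDS and 76.0% for 3' UTR.

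The class went with the gene to a large degree. Of the 1231 genes, 1049 had exon-class peaks only and 182 (14.8%) also had a peak of another class, CDS in 139, 3' UTR in 92 and 5' UTR in 14. Of the 665 of these genes with 2 or more peaks of any class, 27.4% mixed classes, against 66.7% of the 3455 genes with a CDS peak and 2 or more peaks, and 83.6% for 3' UTR. Only 2 member peaks shared a base with a peak of another class. In the 182 mixed genes, 45.8% of the 227 exon-class peaks and 52.3% of the 474 other peaks passed the authors' threshold. Within members, 38 peaks (1.81%) shared bases with another member, so a few regions are counted more than once.

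Peaks per gene ran from 1 (717 genes) through 2 (298 genes) to 3 or more (216 genes), and the most was 7, in Trp53inp1, Nop56, Rack1 and Rnf4. Fold enrichment of IP over input, as the authors deposited it, had a median of 7.05 with quartiles of 3.81 and 12.6. The median was 5.54 for CDS and 8.23 for 3' UTR peaks. Among the highest enrichments were those in Rps12 (139-fold), a protein of the small ribosomal subunit, Ier3ip1 (131-fold), an endoplasmic reticulum protein, Trmt1 (129-fold), a transfer RNA methyltransferase, Cxcl10 (113-fold), a chemokine, and Atp5l (106-fold), a subunit of ATP synthase.

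The central comparison was of cisplatin with control at each peak. The authors' deposited table gives a log2 difference, the log10 of its adjusted p and no value per library, so replicate spread cannot be shown for peaks. The headers do not state the direction of the difference. The naming of the table makes cisplatin over control the likely one, and signs are given here as deposited. Each difference in the following paragraphs is from that table.

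At an adjusted p under 0.05, 943 member peaks (44.9%) were differential, against 46.2% of all peaks. Positive differences made up 760 (36.2%, background 36.5%) and negative ones 183 (8.72%, background 9.62%). The members thus stood close to the whole table. CDS peaks reached 56.0%, 3' UTR peaks 36.2%, 5' UTR peaks 34.1% and exon-class peaks of other genes 22.0%. The median log2 difference was 1.58 over the members and 1.58 over all peaks, with quartiles of 0.27 and 3.22 in the members. Taking 1 peak per gene, that of highest enrichment, left 490 of 1231 (39.8%), 388 positive and 102 negative.

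**Figure D2:**
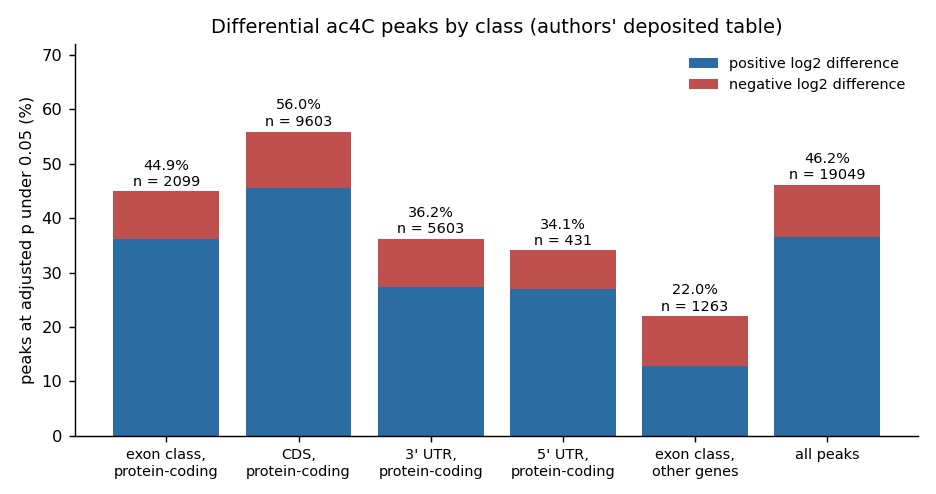
Percentage of peaks with an adjusted p under 0.05 in the authors' deposited table (vertical axis) by peak class, split into positive (blue) and negative (red) log2 differences. Exon-class peaks of protein-coding genes stand at 44.9%, between CDS (56.0%) and 3' UTR (36.2%) and near all peaks (46.2%).

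How often a member passed the threshold moved with its gene's input level and with its size. In 4 equal groups of the members by mean input FPKM (fragments scaled by gene length and library size), with medians of 2.08, 6.39, 13.4 and 43.0 FPKM, the share passing was 20.5%, 36.4%, 53.6% and 70.1%. Peaks of the other classes in protein-coding genes, cut at the same FPKM bounds, gave 19.5%, 36.1%, 50.4% and 71.7%. At like gene level the members therefore passed about as often as the other classes. Median enrichment of the members was 9.40, 7.84, 6.86 and 4.42 in the same order. By structure, 35.9% of members with 1 block passed, 54.5% with 2 and 66.6% with 3 or more. Gene level and block number moved with the calls, and their part in the differences between classes was not tested.

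**Figure D3:**
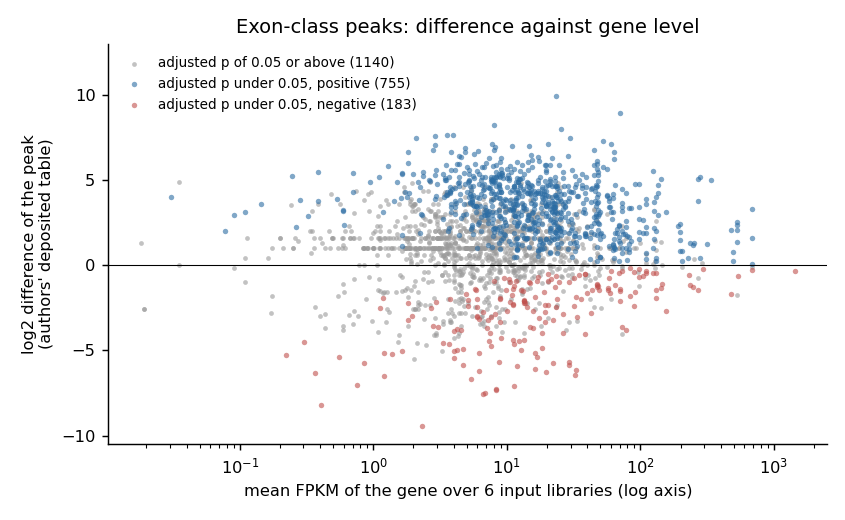
Log2 difference of each member peak from the authors' deposited table (vertical axis) against the mean FPKM of its gene over the 6 input libraries (horizontal log axis), for 2078 peaks whose gene is in the expression table. Grey points missed the adjusted p of 0.05, blue passed with a positive and red with a negative difference, and rows of grey points stand at 1.00 and 1.58.

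Many deposited values repeat. A log2 difference of 1.00 stood in 163 members (7.77%), 0 of which passed, and 1.58 stood in 107, of which 2 passed. Values equal, at the 3 digits deposited, to the log2 of a whole number from 2 to 16 in either sign made up 568 members (27.1%), of which 7.22% passed, against 58.9% of the remaining 1531. Over all peaks the share was 26.0%, of which 8.35% passed. The genes of the 568 peaks had a median of 4.98 FPKM and the others 11.6 FPKM. Enrichment repeated too, with 7.05 in 109 members and 8.23 in 84.

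Among the largest positive differences that passed, Rnf181, a ubiquitin ligase, led with 9.94 (log10 adjusted p of -14.3) at chr6:72360250-72360369, a single block at 91.8% of the gene. Srsf5, a serine and arginine rich splicing factor, followed with 8.92 (-18.9), then Mroh1 with 8.23 and Psma7, a subunit of the proteasome core, with 7.98 (-37.2). Sec11c, a catalytic subunit of signal peptidase, had 7.66 and Srprb, which anchors the receptor of the signal recognition particle, 7.63. Both act in the entry of proteins into the endoplasmic reticulum. Crip1 had 7.57 and Eif3e, a subunit of a translation initiation factor, 7.47.

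Input RNA of these genes went in several directions. Rnf181 stood at 30.5, 31.1 and 28.8 FPKM in control and 16.6, 15.3 and 18.0 FPKM after cisplatin. The groups did not overlap, and Rnf181 fell by 0.82 on the log2(FPKM + 1) scale (SE 0.0619, limma adjusted p = 1.11e-05). Sec11c fell from 7.31, 7.99 and 7.91 FPKM to 0.280, 0.138 and 0.206 FPKM, which after cisplatin rests on 48 recovered fragments in 3 libraries. Crip1 fell by 1.19 (limma adjusted p = 3.04e-06) and Srprb fell by 0.74 (5.79e-05). Srsf5 rose by 0.18 (limma adjusted p = 0.00339), from 67.9, 64.0 and 65.9 FPKM to 78.4, 72.9 and 74.0 FPKM, a call lost after rescaling to a common sum (0.09, limma adjusted p = 0.0686) and after quantile normalization (0.01, limma adjusted p = 0.800). Mroh1 overlapped between groups, with a log2 value of 0.05 (limma adjusted p = 0.505). FPKM is relative to each library's total, so fewer cells expressing a gene and less RNA per cell cannot be told apart. The peak differences and these changes share the input libraries, so they are set side by side and no relation between them was computed.

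The largest negative differences that passed were of Ier3ip1 (-9.45, log10 adjusted p of -8.12) and Zfr2 (-8.20), a zinc finger RNA-binding protein. Top3b, a topoisomerase that acts on DNA and RNA, had -7.56 with a log10 adjusted p of -34.9 at chr16:16884233-16884413. Ipo8, a nuclear import receptor, had -7.49, and Lpcat3, an acyltransferase of membrane phospholipids, -7.30. Limk2, a kinase that phosphorylates cofilin, had -7.26, Impad1, a Golgi phosphatase, -7.09 and Ppm1h, a protein phosphatase, -7.04. Some of these genes also had positive member peaks that passed, so the values are of single peaks and not of genes. Such peaks stood at 2.97 in Ier3ip1, 3.45 in Ipo8, 3.15 and 5.17 in Limk2, and 3.44 and 4.64 in Impad1. Top3b rose in input from 4.61, 5.23 and 5.17 FPKM to 8.39, 8.63 and 7.58 FPKM, a log2 change of 0.62 (limma adjusted p = 8.93e-05). Lpcat3 fell from 10.5, 10.7 and 10.1 FPKM to 6.26, 6.31 and 5.94 FPKM (log2 change -0.67, limma adjusted p = 7.48e-06). Zfr2 was low throughout, 0.621 to 0.788 FPKM in control and 0.0175 to 0.182 FPKM after cisplatin, and like Ppm1h was below the filter of the test.

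Peaks of the same gene often differed. In the 514 genes with 2 or more member peaks, the log2 differences within a gene spanned a median of 3.25, with quartiles of 1.57 and 5.20. Of the 205 genes with 2 or more peaks past the threshold, 65 had peaks of both signs. The median log2 difference of passing peaks was 3.62 for positive and -2.31 for negative ones.

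Trp53inp1, a stress protein induced by p53, had 7 exon-class peaks, 6 of them positive past the threshold and none negative. Their log2 differences ran from 1.54 to 5.91, the highest at chr4:11168008-11170063, where 2 blocks hold 361 exonic bases (log10 adjusted p of -9.95). Rnf4, a ubiquitin ligase that recognises SUMO chains, also had 6 of 7 positive, but its rows include pairs that nearly coincide, such as chr5:34352544-34352842 and chr5:34352551-34352849 at 3.44 and 3.42. The Rnf4 peaks lay between 87.5% and 97.5% of the gene. Ptpn11, a tyrosine phosphatase, had 6 peaks, all 6 positive, from 0.41 to 6.68, and was taken from several genes with 6 peaks by its exonic length.

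Rack1, a scaffold protein of the small ribosomal subunit, carried both signs. Its 7 peaks had 3 positive and 3 negative calls, from 4.00 at chr11:48800721-48800990, which covers a whole snoRNA gene, to -1.92 at chr11:48803385-48803624 (log10 adjusted p of -42.0). Nop56, a core protein of snoRNA particles, had 4 positive calls and 1 negative, from -0.45 to 3.92. Such genes cannot be given a single direction.

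**Figure D4:**
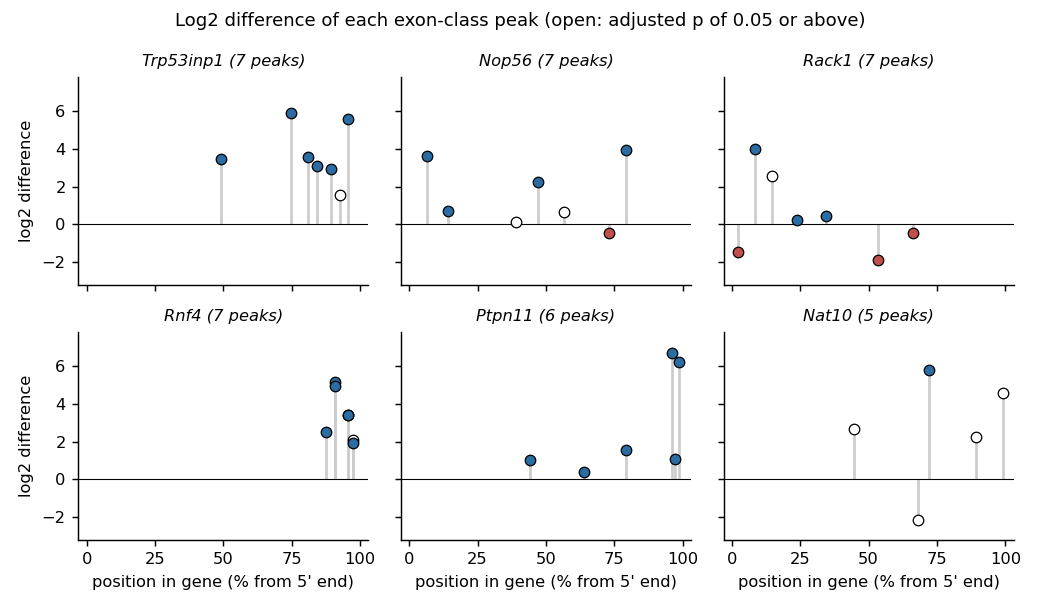
Log2 difference of each exon-class peak (vertical axis, authors' deposited table) by its position in the gene (horizontal axis, percent from the 5' end) in the genes with the most member peaks and in Nat10. Filled points passed an adjusted p of 0.05, blue positive and red negative, and open points did not: all 6 Ptpn11 peaks are positive, while Rack1 has 3 filled points of each sign.

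Input RNA of these genes is known for each library. Trp53inp1 rose from 13.9, 13.4 and 14.1 FPKM to 24.4, 24.4 and 28.6 FPKM (log2 change 0.85, SE 0.0656, limma adjusted p = 1.24e-05). Nop56 rose from 67.4, 66.8 and 64.9 FPKM to 156, 152 and 157 FPKM (log2 change 1.21, SE 0.0303, limma adjusted p = 1.14e-07). In both genes every cisplatin library lay above every control library. Ptpn11 rose less, by 0.32 (limma adjusted p = 5.04e-05). Rnf4 stood at 22.3 to 23.4 FPKM in control and 20.6 to 25.2 FPKM after cisplatin, and the groups overlapped (log2 change 0.01, limma adjusted p = 0.904).

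Nat10, the acetyltransferase itself, had 5 exon-class peaks and no peak of another class. One passed, at chr2:103732175-103733018 with 2 blocks and 181 exonic bases, a log2 difference of 5.79, a log10 adjusted p of -4.23 and an enrichment of 6.92-fold. The other 4 had 4.58, 2.23, 2.68 and -2.17 and missed the threshold. The most enriched, 16.5-fold, joined 5 blocks at chr2:103743344-103750240. Thumpd1 had no exon-class peak but 2 CDS peaks, one of them positive at 5.61 (log10 adjusted p of -5.36), and a 3' UTR peak negative at -1.56 (-7.98). Nat10 RNA was 6.36, 6.60 and 6.09 FPKM in control and 6.92, 7.01 and 7.51 FPKM after cisplatin. It rose by 0.15 (SE 0.0533, limma adjusted p = 0.0346), but the call was lost after rescaling to a common sum (0.06, limma adjusted p = 0.314) and with the replicate block (limma adjusted p = 0.0706). Leaving out control input replicate 1, control input replicate 3 or cisplatin input replicate 3 ended it too (limma adjusted p = 0.0797, 0.113 and 0.0771). Thumpd1 rose by 0.22 (limma adjusted p = 0.00982), from 38.5 to 39.9 FPKM in control to 42.7 to 50.1 FPKM.

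The 16 gene lists were chosen with earlier results known and are described by counts. Their backgrounds are 36.5% positive and 9.62% negative peaks and, for input RNA, 40.1% of tested genes higher and 41.1% lower. The peak background moves with gene level. Positive peaks made up 15.4% of members in the lowest of the 4 groups by gene FPKM and 56.5% in the highest. The part of gene level in the counts of each list was not tested. Of 30 genes for RNA modification, 24 had any peak and 5 an exon-class one: Nat10, Trmt6, Ythdc1, Rbm15 and Alkbh5. Of their 15 member peaks 5 were positive and 0 negative past the threshold. Trmt6, the partner subunit of a transfer RNA methyltransferase, had 2 of 4 positive, up to 4.39. Ythdc1, a nuclear reader of methylated adenosine, had 1 of 3 positive, at 0.94. Alkbh5, a demethylase of that mark, had 1 peak, positive at 2.10.

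Ribosomal proteins were the largest group, with 30 of 78 listed genes and 57 member peaks, of which 35 were positive and 11 negative. In the highest of the 4 groups of members by gene FPKM, 56.5% were positive and 13.7% negative. The part of gene level in the counts of this list was not tested. Their median log2 difference was 1.00 and median enrichment 5.28-fold. At the lowest log10 adjusted p in the table, -434, where peaks have no order, stood 37 of all 19049 peaks and 5 of the 2099 members. The signs of the other peaks there are not given here. Those 5 members were all negative. They include Rpl37 (-1.67), Rps18 (-1.31) and Rpl13a (-0.89) of the ribosome and Rbm25 (-1.55), a splicing regulator. Rpl37 stood at 439, 444 and 439 FPKM in control input and 548, 466 and 509 FPKM after cisplatin. Rps12 had 4 of 4 peaks positive, Rpl30 had 2 of 2 negative, and Rps3 and Rpl27a carried both signs. Of the 30 genes 22 rose and 2 fell in input RNA, with a median of 0.20, but after quantile normalization 12 rose and 8 fell, so no direction is given for the family.

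Genes of ribosome assembly had 8 of 47 listed genes and 27 member peaks, 14 positive and 3 negative. Mybbp1a, a nucleolar protein that binds MYB, had 5 positive peaks and 1 negative. Its peak at chr11:72451020-72451529 reached 52.9-fold enrichment, a log2 difference of 4.80 and a log10 adjusted p of -193.0. Utp4, a component of the small subunit processome, had 3 of 5 positive, up to 5.75. In input RNA 7 of the 8 rose and 0 fell, where 40.1% of all tested genes rose and 41.1% fell, and the same counts were found under both other scalings. Mybbp1a rose from 70.9, 69.2 and 69.5 FPKM to 129, 128 and 121 FPKM (log2 change 0.84, limma adjusted p = 6.23e-07). Genes that host snoRNAs, many of them ribosomal, had 20 of 56 genes and 54 peaks, 33 positive and 8 negative. Of translation factors 6 of 48 had 9 peaks, 6 positive and 0 negative.

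Splicing genes had 17 of 67 listed and 39 peaks, 22 positive and 4 negative. All 4 CLK kinases, which phosphorylate SR proteins, were among them, with passing peaks of up to 3.39 in Clk1, 5.52 in Clk2, 6.08 in Clk3 and 4.75 in Clk4. Hnrnph1, a nuclear RNA-binding protein, had 3 of 3 positive, up to 4.23. Srsf5 had 2 positive and 2 negative, and Srsf3 2 positive and 1 negative. Snrnp70, a protein of the U1 particle, had 1 peak at 5.80. In input RNA 12 of the 17 rose and 5 fell, against 40.1% and 41.1% of all tested genes. Counts of 10 and 5 were found after rescaling to a common sum, and 8 and 4 after quantile normalization.

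Among p53 targets 6 of 38 had 16 member peaks, 8 positive and 0 negative, with 6 of the 8 in Trp53inp1 alone. Trp53 itself had 1 of 2 positive, at 3.50 in chr11:69589644-69590004 (log10 adjusted p of -10.0). Mdm4, an inhibitor of p53, had 1 peak, positive at 3.72 (-14.3). Ddb2, a sensor of damaged DNA, had -4.58 without passing. All 6 rose in input RNA (Ccng2, Ddb2, Mdm4, Plk3, Trp53 and Trp53inp1), with a median of 0.83, where 40.1% of all tested genes rose. Trp53 stood at 16.6, 16.8 and 16.9 FPKM in control and 26.4, 26.1 and 24.2 FPKM after cisplatin.

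DNA repair genes had 7 of 45 listed and 18 peaks, 7 positive and 0 negative. Lig1, the replicative DNA ligase, had 4 of 6 positive, up to 5.31 at chr7:13280153-13285366 (log10 adjusted p of -43.0). Ercc5, an endonuclease of nucleotide excision repair, had 2 of 5 positive, up to 4.39, and Ercc3, a helicase of that pathway, 1 of 2. Ercc3 RNA rose from 9.42, 8.34 and 9.99 FPKM to 25.0, 24.6 and 23.4 FPKM (log2 change 1.31, limma adjusted p = 1.50e-06). Of the 7 genes 5 rose and Rad18, a ubiquitin ligase of damage tolerance, fell.

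Immune genes had 8 of 38 listed and 16 peaks, 5 positive and 0 negative. Cxcl10, at 113-fold enrichment, had a log2 difference of 0.70 that missed the threshold, while its RNA rose from 2.04, 2.35 and 1.81 FPKM to 33.0, 31.2 and 31.7 FPKM (log2 change 3.43, SE 0.0697, limma adjusted p = 6.96e-08). Ccl2, a monocyte chemokine, had 2 of 2 positive, at 1.81 and 6.12. H2-K1, a class I antigen-presenting molecule, had 1 peak at 4.71, and H2-T23 had 1 of 2 positive. Tnfaip3, an inhibitor of NF-kappaB signalling, had 1 of 4 positive, and its RNA rose from 2.86, 3.21 and 2.78 FPKM to 15.0, 15.1 and 14.7 FPKM. Of TGF-beta genes only Skil, a repressor of SMAD proteins, and Tgfb1, the ligand, were members, Skil positive at 4.58 and Tgfb1 at 0.58 without passing.

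Chaperones had 8 of 36 listed and 19 peaks, 14 positive and 2 negative, at a median enrichment of 2.01-fold. Hspa8, Hsp90b1, Hyou1 and Cct3 of this list lie in the highest group by gene FPKM, where 56.5% of members were positive. Hsp90b1 and Hyou1, chaperones of the endoplasmic reticulum, had 4 of 4 and 2 of 2 positive. Hsp90b1 RNA fell from 244, 244 and 243 FPKM to 150, 147 and 162 FPKM (log2 change -0.67, limma adjusted p = 3.79e-06). Cholesterol genes had 6 of 34 listed and 11 peaks, 4 positive and 0 negative. Of the 6, Fdps, Lss, Msmo1 and Sqle fell in input RNA and Srebf1 rose. Lss, lanosterol synthase, went from 12.3, 12.9 and 11.8 FPKM to 4.46, 4.89 and 3.83 FPKM, and 2 of its 4 peaks were positive, up to 5.20.

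Of the remaining lists, chromatin genes had 9 of 62 listed and 13 peaks, 8 positive and 2 negative. Kdm5c, a histone demethylase, was the most negative at -5.65 (log10 adjusted p of -9.08), and Hdac6, a cytoplasmic deacetylase, had 2 of 2 positive at 4.67 and 4.87. Matrix genes had 5 of 50 listed and 8 peaks, 1 positive and 1 negative, the latter in Hspg2, the proteoglycan perlecan, at -2.09. Immediate early genes had Dusp1 and Zfp36, with 4 peaks of which 2 were positive, both in Dusp1, a phosphatase of MAP kinases. Dusp1 peaks reached 58.8-fold enrichment, and its RNA rose from 14.0, 13.5 and 13.2 FPKM to 43.6, 43.7 and 43.8 FPKM. Histone genes had 2 of 35 listed, with 2 of 4 peaks positive.

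For input RNA as a whole, 1148 of the 1231 genes passed the filter of at least 1 FPKM in 3 of the 6 input libraries. Of these, 913 (79.5%) passed an adjusted p of 0.05 in the limma fit over 11449 genes, where 81.3% passed. Genes that rose numbered 532 (46.3%, background 40.1%) and genes that fell 381 (33.2%, background 41.1%). The median log2 change was 0.10 in the members' genes and -0.00 over all tested genes. Protein-coding genes with peaks of other classes only gave 41.5% higher and 39.3% lower. Changes of at least 2-fold were fewer, 66 higher (5.75%) and 66 lower (5.75%) of the 1148 genes. Over all 11449 tested genes they numbered 1239 higher and 1498 lower. Among the 6007 tested protein-coding genes with peaks of other classes only, they numbered 468 higher and 455 lower.

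Some genes with a passing peak changed strongly in input RNA. Emp1, an epithelial membrane protein, had a positive peak (1.82, log10 adjusted p of -39.0) and rose from 29.2, 30.4 and 29.0 FPKM to 120, 118 and 120 FPKM. Angptl2, a secreted angiopoietin-like protein, had 3.48 and rose from 2.89, 2.97 and 2.93 FPKM to 12.7, 13.5 and 11.7 FPKM. Aox1, an aldehyde oxidase, had a positive peak (2.56) and fell from 18.9, 18.8 and 19.0 FPKM to 6.16, 5.68 and 5.25 FPKM. Tead3, a transcription factor of the Hippo pathway, had 5.17 and fell from 2.03 to 2.18 FPKM in control to 0.0596 to 0.103 FPKM.

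Negative peaks likewise occurred beside both directions of RNA. Plaur, the urokinase receptor, had -3.10 and rose from 9.29, 9.31 and 8.17 FPKM to 25.1, 28.7 and 24.7 FPKM. Tnpo2, a nuclear import receptor, had a peak at -1.87 beside 3 positive ones, and rose from 7.40, 7.95 and 8.14 FPKM to 24.3, 26.8 and 22.9 FPKM. Plxna4, a semaphorin receptor, had -3.35 and fell from 34.8, 35.2 and 36.6 FPKM to 3.18, 3.11 and 2.92 FPKM (log2 change -3.17, SE 0.0448, limma adjusted p = 3.20e-08). Daam2, a formin, had -3.24 and fell from 32.5, 32.1 and 31.5 FPKM to 13.4, 12.6 and 11.5 FPKM. Daam2 also had passing peaks at -5.76 and 2.54. The genes in this paragraph and the one before it were picked by rule to fill each of the 4 combinations of sign. How often each combination occurs was not counted.

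**Figure D5:**
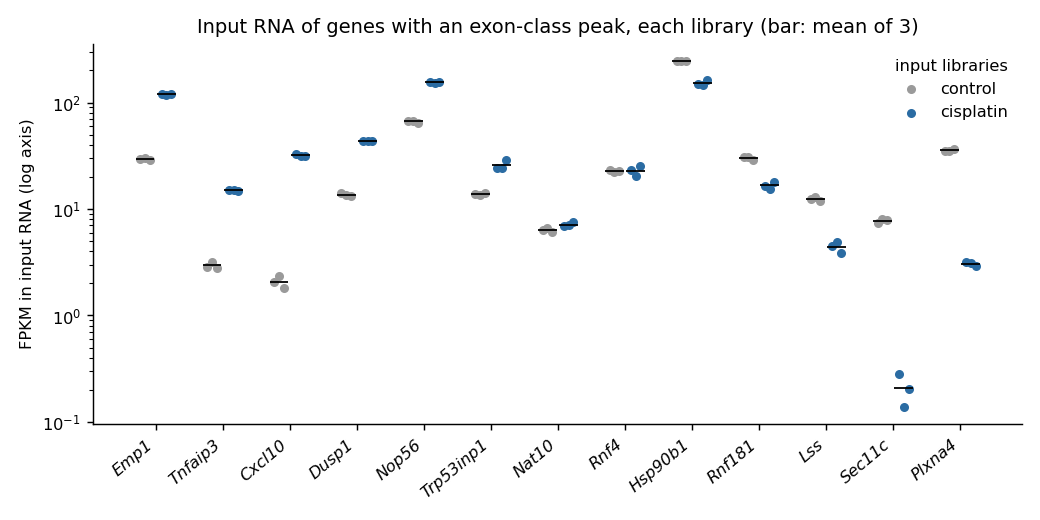
FPKM in each of the 3 control (grey) and 3 cisplatin (blue) input libraries on a log axis, with the mean as a bar, for 13 genes with an exon-class peak. The groups overlap in Rnf4. Levels run from Cxcl10 at 1.81 to 2.35 against 31.2 to 33.0 FPKM to Plxna4 at 34.8 to 36.6 against 2.92 to 3.18 FPKM. Some of these genes were named by a rule that uses the input change. Of all tested genes, 81.3% passed an adjusted p of 0.05 in the limma fit.

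The input libraries held 20134902 to 21336306 recovered fragments in listed genes for control and 21752961 to 29687163 for cisplatin. The label of the cells was compared with marker genes: 11 of 14 markers of ovarian surface epithelium and mesothelium reached 1 FPKM, with summed levels of 2136 to 2170 FPKM in control and 2970 to 3317 FPKM after cisplatin. None of 6 T cell markers was in the table, and of 7 macrophage markers only Cd68 reached 1 FPKM (summed 2.25 to 2.60 against 8.14 to 9.97 FPKM), with Ptprc, Adgre1 and Csf1r not listed. Of 5 endothelial markers only Tek reached 1 FPKM (summed 0.723 to 0.931 against 2.75 to 2.96 FPKM), with Pecam1 and Cdh5 not listed. Of 8 fibroblast markers 3 reached 1 FPKM, Col1a1, Dcn and Pdgfra (summed 23.7 to 24.6 against 17.5 to 19.0 FPKM). The part of these marker sums in the results was not tested.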

How the data were processed

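ac4C IP and input RNA of ID8 cells was sequenced in 12 libraries, 4 groups of 3. Per the submitters' processing notes the build was mm10 and the tools included HISAT2, HOMER, fastp and FastQC, without versions. The sources used here name neither the peak caller nor the annotation. The authors deposited a peak table with, per the file headers, a fold enrichment ratio, the log10 of its p-value, a log2 difference and the log10 of its p-value and adjusted p-value, with no value per library. These deposited log10 values reach far below common p-values and were read as scores for the threshold and for order. The authors also deposited FPKM values of 14852 genes in the 6 input libraries. Peak coordinates were turned to count from 1 and give outer ends, which can include introns. Differential peaks are those at the authors' adjusted p-value under 0.05; 6 members at a rounded log10 of -1.30 were counted by the value as deposited.

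FPKM steps gave whole fragments, within 0.0001, for 14851 of 14852 genes. Genes with at least 1 FPKM in 3 libraries were tested on log2(FPKM + 1), which understates changes of low genes, with limma (version 3.58.1, R 4.3.3) by lmFit and a trended eBayes fit and adjusted over all genes by Benjamini-Hochberg, after a test on simulated data. Python 3.11.15 with pandas 2.3.3 did the rest. The labels do not say whether replicate numbers pair control with cisplatin samples. Deviations of same-numbered input libraries correlated at 0.0975, -0.116 and 0.0428, which cannot settle it. The replicate number was left out of the main fit and used as a block in an alternative.

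The members and gene lists were chosen with earlier results of these data known. Genes were named by rule: the 8 largest positive and 8 largest negative differences, the 6 highest enrichments, 5 genes with the most peaks (the last by exonic length, which the rule did not set), up to 3 genes per list by lowest adjusted p-value, 4 for each combination of peak and input sign, and Nat10 and Thumpd1, leaving out predicted, Rik, pseudogene and mitochondrial names. Genes named for a list count, a start window or a small RNA were chosen as members of that set. Symbols matched RefSeq in 1222 of 1231 genes. Some genes that the rule names are not reported here.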

Additional observations from a re-analysis of the deposited data

How the results depend on the processing

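The count of differential exon-class peaks kept within 1.5 times under a threshold of 0.01, a minimum difference, a minimum enrichment of 2-fold and the limits by expression table, strand and overlap, but 1 peak per gene gave 490, with 388 positive and 102 negative. For input RNA, a filter of 5 FPKM gave 244 lower genes. A change of at least 2-fold gave 132 genes, 66 higher and 66 lower, where 1239 of all 11449 tested genes were higher and 1498 lower. Rescaling to a common sum gave 462 higher and 450 lower. It moved the median of all genes from -0.00278 to -0.0931 and that of the members' genes from 0.10 to 0.01. The members' median thus stayed above that of all genes. Leaving out each replicate in turn gave 822 to 907 genes, with 490 to 516 higher and 312 to 391 lower. The replicate block gave 914 genes, 532 higher and 382 lower, and whether the numbers pair control with cisplatin samples is not known. Under quantile normalization small rises turned to -0.16 in Rps12, -0.08 in Rpl37, -0.15 in Rps18, -0.02 in Rpl3 and -0.10 in Rack1, and the cause was not tested. Of 77 named genes tested in input RNA, 56 kept their call under every alternative, with direction compared only where a call was made. The relation between peak difference and input change, with its alternatives, was not run because both use the input libraries. Of the members, 20.5% passed in the lowest of 4 equal groups by gene FPKM, against 70.1% in the highest, and the part of depth in this was not tested.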
